A study of Mus musculus with 12 samples.

Results

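The widest open domains of mouse alveolar type II (AT2) cells were 1358 of 83727 merged regions of open chromatin (1.62%). The peaks of all 12 libraries of the study were merged where they overlapped by at least 1 bp, on the autosomes and X. A merged region was kept if it was at least 2500 bp wide and if every library had a peak in it. Of the 35222 regions that all 12 libraries held, 3.86% were this wide, and the other 33864 were shorter. A further 140 regions of 2500 bp or more lacked a peak in at least 1 library and were left out.

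Open chromatin was mapped with Omni-ATAC-seq, an assay whose transposase, Tn5, inserts sequencing adapters into open DNA of isolated nuclei. The tumour models were 4T1, a mammary carcinoma line, and CT26, a colon carcinoma line, both from BALB/c mice. BALB/c mice aged 6 to 8 weeks received 800000 labelled tumour cells of one line by tail vein, and lungs were taken on day 7. The groups were AT2 cells of the 4T1 metastatic niche (4T1 niche), of lung distal to 4T1 metastases (4T1 distal), of the CT26 metastatic niche (CT26 niche) and of lung distal to CT26 metastases (CT26 distal). Each group had 3 independent samples, each from 50000 sorted cells of 5 pooled lungs, so a value averages over animals, and every group came from a tumour-bearing host, with no lung free of tumour cells used here. The study asked how AT2 chromatin changes beside metastases in both models.

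AT2 cells make and secrete surfactant, store it in lamellar bodies, and act as progenitors that renew the alveolar epithelium. Their identity is held by transcription factors such as NKX2-1. Open chromatin at most active promoters spans a few nucleosomes, and long open stretches are known from genes that define a cell type and from genes transcribed at high rates or in rapid response to signals.

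The stretches of 250 bases upstream of 6 gene starts are shown because the results below turn on these domains: Nkx2-1 for AT2 identity, and the others because their open length differed between groups with every scaling tried. They are RefSeq sequences in GRCm38.p6 coordinates, written 5′ to 3′ on the strand of the gene. Capitals mark matches, on either strand, to the TATA box (TATAAA), the CCAAT box (CCAAT), the GC box (GGGCGG), the AP-1 site (TGANTCA), the core of the NKX2-1 site (CTCAAG) or the TEAD site (GGAATG), and matches may overlap.
Nkx2-1 (chr12:56536909-56537158, minus strand): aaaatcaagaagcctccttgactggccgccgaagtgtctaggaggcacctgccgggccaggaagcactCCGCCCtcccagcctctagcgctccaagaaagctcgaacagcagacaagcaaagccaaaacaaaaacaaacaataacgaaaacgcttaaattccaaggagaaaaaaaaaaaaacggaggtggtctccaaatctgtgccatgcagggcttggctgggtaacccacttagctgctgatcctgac
Nus1 (chr10:52417297-52417546, plus strand): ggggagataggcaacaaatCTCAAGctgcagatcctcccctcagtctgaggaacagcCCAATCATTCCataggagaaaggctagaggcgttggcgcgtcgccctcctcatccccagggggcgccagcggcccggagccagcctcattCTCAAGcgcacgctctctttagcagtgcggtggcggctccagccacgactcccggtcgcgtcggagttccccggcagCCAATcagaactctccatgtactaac
Mgrn1 (chr16:4885850-4886099, plus strand): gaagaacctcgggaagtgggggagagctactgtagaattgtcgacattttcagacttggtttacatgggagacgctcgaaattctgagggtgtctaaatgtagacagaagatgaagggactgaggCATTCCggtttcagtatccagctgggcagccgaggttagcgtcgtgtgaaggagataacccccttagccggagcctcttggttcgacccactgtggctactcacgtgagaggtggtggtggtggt
Rpia (chr6:70792176-70792425, minus strand): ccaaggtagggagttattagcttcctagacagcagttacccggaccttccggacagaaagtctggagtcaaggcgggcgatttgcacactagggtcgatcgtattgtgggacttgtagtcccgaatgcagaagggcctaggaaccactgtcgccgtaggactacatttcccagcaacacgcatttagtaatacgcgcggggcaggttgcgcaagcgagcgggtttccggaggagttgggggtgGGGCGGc
Spint2 (chr7:29281978-29282227, minus strand): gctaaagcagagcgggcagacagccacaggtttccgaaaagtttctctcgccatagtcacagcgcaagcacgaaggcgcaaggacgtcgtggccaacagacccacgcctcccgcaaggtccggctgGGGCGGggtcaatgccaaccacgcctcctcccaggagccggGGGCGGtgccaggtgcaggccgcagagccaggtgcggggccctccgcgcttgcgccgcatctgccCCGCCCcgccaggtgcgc
Pim1 (chr17:29490535-29490784, plus strand): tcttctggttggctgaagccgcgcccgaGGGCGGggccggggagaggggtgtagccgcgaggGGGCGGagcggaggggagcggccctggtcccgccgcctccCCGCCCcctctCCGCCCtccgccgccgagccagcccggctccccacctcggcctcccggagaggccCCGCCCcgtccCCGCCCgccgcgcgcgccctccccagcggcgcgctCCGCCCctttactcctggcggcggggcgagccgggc
The Pim1 stretch held 7 matches to GGGCGG and the Spint2 stretch 3, the Nus1 stretch held 2 matches to CCAAT, 2 to CTCAAG and 1 to GGAATG, and the Nkx2-1, Rpia and Mgrn1 stretches held 1 match each. A match says only that the letters are there.

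The wide domains had a median merged width of 2856 bp, with quartiles of 2661 and 3211 bp, and the widest spanned 6008 bp. In all, 526 were 3000 bp or wider, 65 were 4000 bp or wider and 6 were 5000 bp or wider. Together they made up 4.08 Mb, or 5.52% of the merged length. The domains were chosen by merged width and by presence in every library, so both are given as descriptions. The 222 domains within 100 bp above the limit had a mean covered length of 1803 bp per library, against 1735 bp in the 301 regions within 100 bp under it.

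A merged width is the reach of all libraries together, and the stretch under a peak in every library was much shorter. This shared core had a median of 1166 bp (39.1% of the width) and a largest value of 3489 bp. It was at least 2500 bp in 63 domains, under 500 bp in 254 and absent in 31, where all 12 libraries had peaks but no base was common to them. Only 445 domains were a single peak in each of the 12 libraries, and in 283 no library had a single peak of 2500 bp. The longest cores, picked after their values were seen, lay at an end of Esrp2, an epithelial splicing regulator whose strand was not given (3489 bp), at the start of Nr1d1, the circadian repressor REV-ERBα (3320 bp), and in Kdm6b, a histone H3K27 demethylase (3245 bp). The core in the body of Fosb, an AP-1 subunit, was 3146 bp, and that at Cftr, the chloride channel, was 2961 bp.

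The longest lists came from 4T1 niche AT2 cells and the shortest from CT26 distal AT2 cells, and the reach of the domains followed the same order. Lists held 65373 peaks in 4T1 niche, 57404 in 4T1 distal, 52655 in CT26 niche and 46808 in CT26 distal AT2 cells on average, and covered 50.9, 44.2, 40.4 and 33.2 Mb. Peaks covered 2373 ± 136 bp of a domain in 4T1 niche, 2155 ± 90.5 bp in 4T1 distal, 2043 ± 186 bp in CT26 niche and 1685 ± 24.5 bp in CT26 distal AT2 cells (mean over domains, SD over n = 3 libraries). A single peak of 2500 bp or more lay in 585 ± 121, 407 ± 59 and 363 ± 132 of the 1358 domains in the first 3 of these groups, against 172 ± 33 in CT26 distal AT2 cells. In CT26 niche AT2 cells, replicate 1 had such a peak in 515 domains, against 276 and 297 in replicates 2 and 3. The lists give no read counts, so the depth of the libraries is unknown, and the parts of depth and of open chromatin in the length of a list cannot be told apart.

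Per unit of covered length, the order turned. The domains took 6.32 ± 0.21% of the covered length in 4T1 niche, 6.62 ± 0.084% in 4T1 distal, 6.86 ± 0.022% in CT26 niche and 6.91 ± 0.45% in CT26 distal AT2 cells (SD, n = 3). The value for CT26 distal AT2 cells includes 7.42% in replicate 2, which had the shortest list of all. When each list was cut to its 42067 most significant peaks, the shares were 7.34%, 7.24%, 7.30% and 7.12% in the same order of groups.

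**Figure D1:**
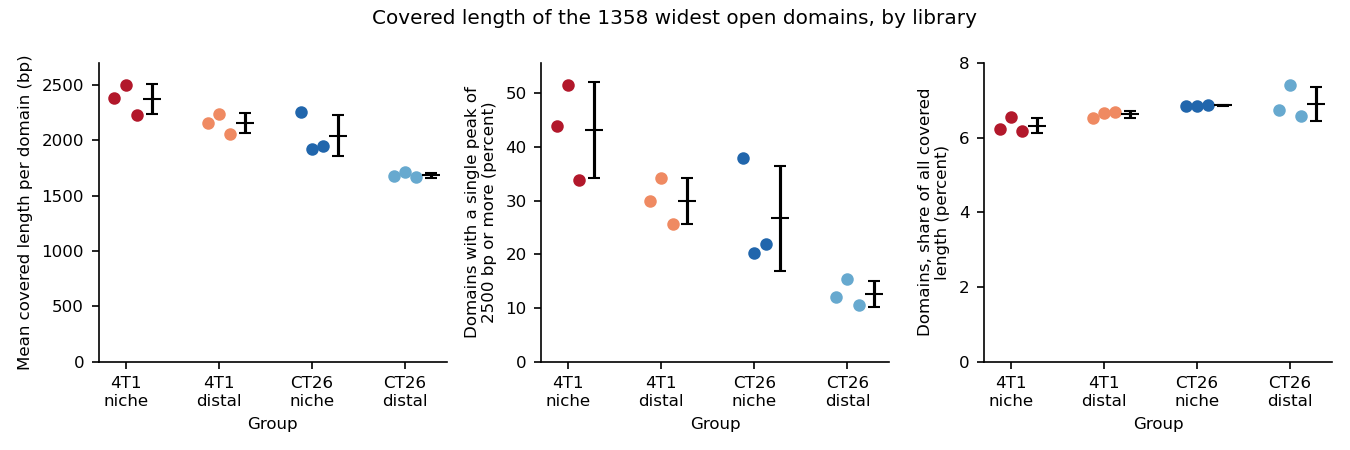
Each point is a library, and the black marks give the mean and SD of 3 libraries for the groups on the x axis. Left, mean covered length per domain in bp; middle, percent of the 1358 domains with a single peak of 2500 bp or more; right, percent of the covered length of the library that lies in the domains. Covered length and single wide peaks were lowest in CT26 distal AT2 cells, while the share of covered length was lowest in 4T1 niche AT2 cells.

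Because of these differences, a domain could pass the width limit through 1 group. The span of a group was taken from its first to its last covered base, so stretches without a peak count in it. The peaks of 4T1 niche libraries alone spanned 2500 bp in 1125 domains (82.8%), those of 4T1 distal in 963 (70.9%), those of CT26 niche in 900 (66.3%) and those of CT26 distal in 653 (48.1%). All 4 groups did so in 574 domains, 1 group in 276 and none in 82. Of the 276, the group was 4T1 niche in 163, 4T1 distal in 56, CT26 niche in 44 and CT26 distal in 13. Counts of changes over all 1358 domains are therefore given beside those for the 574. Since spans include gaps, the 574 are not free of the width rule. At Elk4, for example, CT26 distal peaks spanned 2587 bp, but the libraries covered 1624, 1468 and 1489 bp, unscaled, in 2 peaks each.

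Many of the domains lay at gene starts. A start was known where the RefSeq promoter table gave the strand of a gene, or where both gene ends lay in the domain. By this measure a protein-coding gene started in 557 domains (41.0%), against 26.1% of the shorter regions that all 12 libraries held. Another 154 domains held 1 end of a gene whose strand was not given, which can be its start or its 3′ end. Of the rest, 412 (30.3%) lay in a gene body and 235 (17.3%) outside coding genes, against 39.9% and 28.7% of the shorter regions. Windows of 2500 bp around each middle held a start or such an end in 48.0% of domains and 32.6% of shorter regions. A known start lay in 37.4% of 832 domains under 3000 bp, 45.8% of 461 from 3000 to under 4000 bp and 53.8% of 65 of 4000 bp or more.

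Around the start, the domains reached farther into the gene than upstream. In 412 domains with 1 coding start of known strand, peaks covered 1487 ± 91.4 bp downstream and 1013 ± 38.8 bp upstream in 4T1 niche AT2 cells (mean over domains, SD over n = 3 libraries). The downstream and upstream lengths were 1323 ± 55.1 and 938 ± 36.5 bp in 4T1 distal, 1316 ± 117 and 925 ± 51.0 bp in CT26 niche, and 1044 ± 20.5 and 815 ± 11.1 bp in CT26 distal AT2 cells. The downstream side thus held 59.5%, 58.5%, 58.7% and 56.2% of the covered length in these groups.

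**Figure D2:**
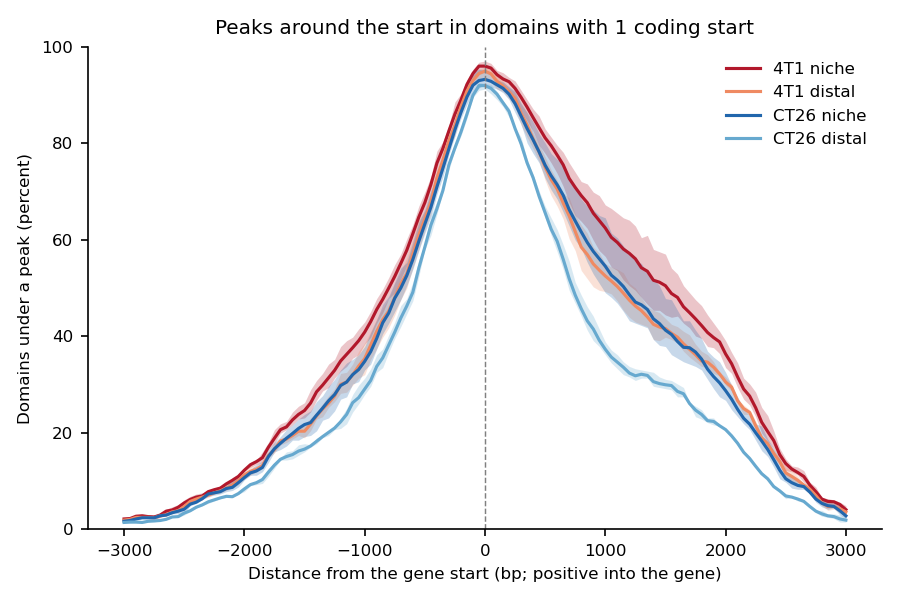
The x axis is the distance from the gene start in bp, positive into the gene, and the y axis is the percent of 412 domains under a peak. Lines are means of 3 libraries and shading spans the lowest to the highest library of a group. All groups peaked at the start, the tail into the gene was longer than the tail upstream, and CT26 distal AT2 cells had the lowest tail on both sides.

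Promoters in the domains were rich in CG. The domains held 735 RefSeq promoters of 300 bases (250 before and 50 after the start), of 596 genes. The median number of CG dinucleotides was 23, against 22 in promoters in shorter regions and 13 in all promoters. GGGCGG occurred in 71.0% of them, against 69.1% and 46.7%, and TATAAA in 6.67%, against 5.85% and 12.7%. CCAAT was found in 30.6% of them, against 38.5% and 38.5%, and CTCAAG in 11.2%, against 14.0% and 15.0%. TGANTCA was found in 5.71%, 4.47% and 7.04%, and GGAATG in 11.8%, 11.3% and 13.5%. These shares are descriptions, with no test.

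The peaks of the wide domains ranked below those of shorter regions by fold enrichment. The caller's fold enrichment over background, the authors' own value for each peak, was used to rank peaks within each list. For each region and library, the peak with the highest −log10 p was taken. In the domains its median rank percentile was 36.3 in 4T1 niche, 36.9 in 4T1 distal, 33.1 in CT26 niche and 37.7 in CT26 distal libraries. In shorter regions it was 71.4, 68.7, 66.0 and 62.5. By −log10 p, the percentiles were 67.5, 65.8, 61.9 and 60.6 in the domains and 72.9, 69.2, 66.4 and 61.9 in shorter regions. How these values depend on the width of a peak was not tested.

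The domains held a known start of 600 of 21627 protein-coding genes (2.77%), and a start or an end of unknown kind of 778. Among the gene lists, the immediate early, the stem and progenitor and the lung epithelial transcription factor genes had the highest shares. Of 29 AP-1 and immediate early genes, which respond within minutes to growth factors and stress, 7 had a known start in a wide domain (24.1%): Atf3, Gadd45b, Ier3, Junb, Klf4, Klf9 and Sgk1. For Egr3, Klf10 and Myc, 1 end of the gene lay in one. Fos and Fosb were overlapped in the gene body. Of 30 AT2 and lung epithelial transcription factors, 5 had a known start there (16.7%): Nkx2-1, Cebpb, Cebpd, Elf5 and Foxp1. Those with 1 end there included Foxp2, Grhl2 and Nfib. Of 22 stem and progenitor genes, 4 had a known start there (18.2%): Fgfr2, the FGF receptor of alveolar epithelium, the Notch ligand Jag1, Notch1 and Klf4.

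Of 20 surfactant and lamellar body genes, 1 had a known start in a wide domain, Lamp3, which encodes a lamellar body membrane protein. A domain also covered 1 end of Scd1, the stearoyl-CoA desaturase. Cldn18, Lpcat1, Lyz2 and Slc34a2 were overlapped in the body. Known starts numbered 1 of 17 for widely expressed control genes (Gapdh), 2 of 22 for NF-kB genes (Birc3 and Tnfaip3), 1 of 24 for interferon genes (Irgm1), 2 of 18 for transitional alveolar genes (Krt8 and Trp53), 1 of 16 for alveolar type I markers (Emp2) and 1 of 12 for long non-coding RNAs (Mir22hg). None of the 28 Hox genes had a start or such an end in a region that all 12 libraries held. The counts are described with no test, since the lists were chosen with results of these data known.

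**Figure D3:**
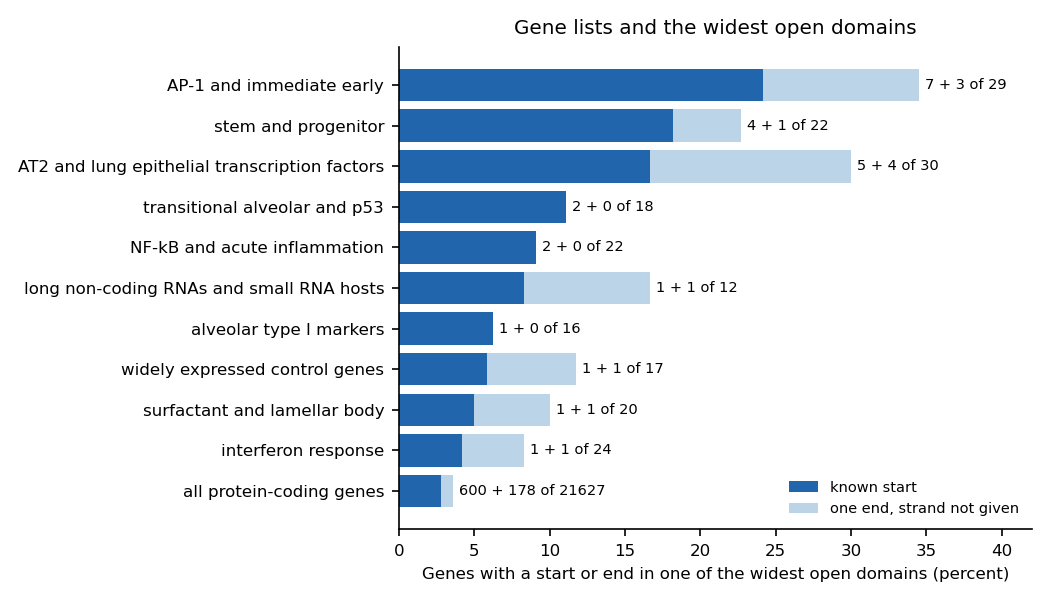
Bars give the percent of the genes of a list with a known start (dark) or with 1 end of unknown kind (light) in a wide domain, for lists with at least 8 genes so placed in regions held by all 12 libraries. The counts beside the bars give known starts plus single ends. Immediate early genes (7 known starts of 29) stand at the top, and all protein-coding genes (600 of 21627) at the bottom.

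The lists of other cell types had no start and no such end in a wide domain. These were macrophage (12 genes), neutrophil, lymphoid, endothelial, fibroblast, airway, mammary carcinoma and colon carcinoma markers (10 genes each). A start or such an end lay in any region held by all 12 libraries for 1 macrophage, 0 neutrophil, 0 lymphoid, 2 endothelial, 1 fibroblast, 2 airway, 3 mammary and 0 colon markers. For surfactant genes the count was 16 of 20 and for AT2 transcription factors 28 of 30, against 12077 of 21627 protein-coding genes (55.8%). High counts were not particular to AT2 lists. They were 28 of 29 for immediate early genes, 15 of 16 for alveolar type I markers, 21 of 24 for interferon genes and 15 of 17 for control genes.

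Nkx2-1, which encodes the lineage factor of lung epithelium, had a domain of 2943 bp at its start (chr12:56534714-56537656) with a core of 2277 bp. Peaks covered 2701, 2633 and 2724 bp of it in 4T1 niche, 2532, 2443 and 2683 bp in 4T1 distal, 2655, 2577 and 2492 bp in CT26 niche, and 2943, 2522 and 2546 bp in CT26 distal AT2 cells. The groups overlapped, and the domain was open over most of its width in every library.

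Among the surfactant protein genes, none had a start or such an end in a wide domain, although all had one in a region held by all 12 libraries. The nearest domains lay 860 bp from Sftpb (chr6:72315233-72318379), whose protein is needed for lamellar bodies, and 5931 bp from Sftpc (chr14:70512085-70515010), the most AT2-restricted surfactant gene. Domains also lay 4922 bp from Cebpa and 2013 bp from Foxa2, both transcription factor genes of lung epithelium. The nearest domains to Sftpa1, Sftpd, Abca3, Napsa and Etv5 were 37679 bp away or farther.

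The widest domain of all (chr19:5826229-5832236, 6008 bp) overlapped Neat1, the long non-coding RNA that scaffolds paraspeckles. The next (chr18:60811699-60817410, 5712 bp) held 1 end of Tcof1, a ribosome biogenesis factor, and 1 end of Cd74, the MHC class II invariant chain, and the strand was given for neither. Mef2d, a MADS-box factor (5338 bp), Spry2, an inhibitor of receptor tyrosine kinase signalling (5276 bp), a domain in Atf3, a stress-induced factor (5213 bp), and one in Dnajb13 (5080 bp) followed. The other 6 of the 12 widest were at Ccnd2 (cyclin D2), Efna1 (an ephrin ligand), Lzts2, Brd2 (a BET bromodomain protein), Trim8 and Myc, from 4700 to 4973 bp. These domains differed in how evenly the libraries covered them. Brd2 had between 2907 and 4731 bp under peaks in any library, whereas Ccnd2 had 4646 bp in CT26 niche replicate 1 and 370 to 2242 bp in the other 11.

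Differences between groups were tested with limma on log2(covered length + 500 bp), after scaling each library to the mean total covered length. P-values were adjusted over the 64948 regions held by at least 3 libraries, and a domain was called at an adjusted p under 0.05. Covered length cannot exceed the width of a domain, so a domain open over its whole width in every library gets a higher scaled length in shorter lists. Against no scaling, total length scaling moved the median log2 change over all regions tested from 0.06 to −0.06 for 4T1 niche minus distal, from 0.11 to −0.00 for CT26 niche minus distal, and from −0.17 to 0.01 for CT26 minus 4T1. The calls below that hold with 4 scalings (to total length, none, to the length in regions held by all 12 libraries, and an equal number of peaks) do not change with this choice, and they lead the account. That set was formed after the values were seen.

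In 4T1 lungs, 3 domains were wider in niche than in distal AT2 cells with all 4 scalings: Nus1, Mgrn1 and Tbc1d1. Mgrn1 and Tbc1d1 passed the width limit through the peaks of 4T1 niche libraries alone, so their excess there is given as a description, with no p. The width of Nus1 also rested on niche peaks, as given below. With total length scaling alone, 6 domains were higher and 5 lower in niche AT2 cells (0.81% of 1358), against 2.53% higher and 0.169% lower among all regions tested, and 0.29% called either way among regions held by all 12 libraries. The median log2 change was −0.08 in the domains and −0.06 over all regions tested. Among the 574 domains that every group spans, 0 were higher and 1 was lower by limma. With any 1 of the 3 niche libraries of 4T1 left out, 0 domains were called in either direction, so these calls need all 3 of them. Over the 1358 domains, 42 were higher and 100 lower at an unadjusted p under 0.05.

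The domain at the start of Mgrn1, an E3 ubiquitin ligase (chr16:4885813-4888386, 2574 bp), was spanned over 2574 bp by the peaks of 4T1 niche libraries, and over 1251, 1009 and 1251 bp by those of 4T1 distal, CT26 niche and CT26 distal libraries. The scaled length was 2036, 2051 and 2122 bp in 4T1 niche libraries, against 1137, 1134 and 908 bp in 4T1 distal libraries. The groups were far apart, and the niche libraries had the domain open over nearly its whole width, with unscaled lengths of 2504, 2519 and 2468 bp. The change was 0.72 ± 0.09 on the log2 scale (SE). In CT26 lungs the scaled length was 905, 1029 and 1101 bp in niche libraries, against 1554, 1227 and 1137 bp in distal libraries, and niche lay below distal. The difference between these changes, CT26 minus 4T1, was −0.98 ± 0.13.

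Nus1 encodes a subunit of the enzyme that makes dolichol, the lipid carrier of protein glycosylation. Its domain (chr10:52416909-52419648, 2740 bp) was wider in niche AT2 cells of both models. Peaks of 4T1 distal libraries ran over 2626 bp of it from the first to the last covered base, with gaps counted. Only 4T1 distal replicate 1 had 2 peaks there, 1817 bp unscaled. The other distal libraries had 1 peak each, of 1162 to 1390 bp. Without the niche peaks the domain was thus not shown to reach the width limit. Its niche excess is therefore given as a description, with no p. The scaled length was 2178, 2150 and 2254 bp in 4T1 niche, against 1705, 1284 and 1377 bp in 4T1 distal libraries. It was 2538, 2419 and 2344 bp in CT26 niche, against 1451, 1585 and 1594 bp in CT26 distal libraries. All 6 niche libraries lay above all 6 distal libraries. The log2 change was 0.47 ± 0.08 in 4T1 (SE), 0.52 ± 0.08 in CT26 and 0.50 ± 0.05 over both. In 4T1 the call was lost without any 1 of the niche libraries. The calls in CT26 and over both models held without any 1 of the 12 libraries.

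Tbc1d1, a GTPase-activating protein in glucose uptake, had a domain in its body (chr5:64297120-64300171). Scaled lengths were 1618, 1800 and 1523 bp in 4T1 niche, against 737, 779 and 900 bp in 4T1 distal libraries. The 4T1 groups did not overlap (0.72 ± 0.14). CT26 niche libraries had 652 to 1125 bp, against 703 to 1185 bp in CT26 distal libraries, and these overlapped throughout. The peaks of 4T1 niche libraries spanned 3052 bp of the domain, and those of 4T1 distal, CT26 niche and CT26 distal libraries 915, 2126 and 881 bp.

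In CT26 lungs, 11 domains were wider and 1 was narrower in niche than in distal AT2 cells with all 4 scalings. The 11 were at the starts of Nus1, Rpia, Spint2, Elk4, Fgfbp1 and Ajuba, at 1 end of Map4k4, in the bodies of Nckap5, Ppp2r5e and Dapk2, and 67862 bp from Mbip. The 1 narrower was at Pim1. Of these 12, 4 were spanned over 2500 bp by every group. With total length scaling alone 19 were higher and 3 lower (1.62%), against 1.71% higher and 0.761% lower among all regions tested, and 1.56% called either way among those held by all 12 libraries. The median log2 change was −0.01 in the domains and −0.00 over all regions tested. Among the 574 domains that every group spans, 5 were higher and 2 lower. Without any 1 of the 12 libraries, 8 of the 19 and 2 of the 3 were called every time.

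The difference of the niche minus distal changes, CT26 minus 4T1, was called in 8 domains with total length scaling, 6 higher and 2 lower (0.589%), against 0.513% higher and 1.28% lower among all regions tested, and 0.321% called either way among those held by all 12 libraries. With all 4 scalings it was called higher at Rpia, Spint2, Elk4 and Psat1 and lower at Mgrn1. Mgrn1 passed the width limit through 4T1 niche peaks alone, so its difference is a description. Without any 1 of the 4T1 niche libraries, 0 of the 8 were called.

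Rpia encodes ribose-5-phosphate isomerase of the pentose phosphate pathway. At its start (chr6:70790144-70792720) scaled lengths were 2244, 2424 and 2509 bp in CT26 niche, against 1628, 1461 and 1229 bp in CT26 distal libraries. In 4T1 they were 1938, 1982 and 2052 bp in niche, against 2222, 2202 and 2327 bp in distal libraries, so niche was above distal in CT26 and below it in 4T1 on this scale. Without scaling, the 4T1 change was 0.02 at Rpia and −0.00 at Spint2, so a decrease in 4T1 cannot be read from these values. The log2 change in CT26 was 0.58 ± 0.08 (SE, limma adjusted p = 0.00468), and the difference between the changes, CT26 minus 4T1, was 0.72 ± 0.11 (limma adjusted p = 0.0099). Spint2, an inhibitor of serine proteases at the epithelial surface (chr7:29279959-29282566), had the same order when scaled. Its scaled lengths were 2333, 2740 and 2666 bp in CT26 niche, against 1824, 1725 and 1906 bp in CT26 distal libraries (0.41 ± 0.07, limma adjusted p = 0.0158). In 4T1 they were 2060, 2097 and 2199 bp in niche, against 2375, 2388 and 2581 bp in distal libraries, and the difference between the changes was 0.58 ± 0.10 (limma adjusted p = 0.0182).

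Elk4, an ETS factor that pairs with SRF at immediate early promoters (chr1:132005868-132008665), had 2496, 2793 and 2742 bp in CT26 niche, against 2028, 1975 and 1824 bp in CT26 distal libraries. The CT26 groups did not overlap (0.38 ± 0.07, limma adjusted p = 0.0218), and the p was 0.0562 or 0.0523 without CT26 niche replicate 2 or 3. Psat1, an enzyme of serine synthesis (chr19:15923382-15926098), was called with all 4 scalings for the difference between the models. It had 2503, 2798 and 2749 bp in CT26 niche against 2160, 2185 and 2091 bp in CT26 distal libraries, and 2198, 2051 and 2217 bp in 4T1 niche against 2397, 2446 and 2543 bp in 4T1 distal libraries. The difference of changes, CT26 minus 4T1, was 0.42 ± 0.09 (limma adjusted p = 0.0436). Without scaling, the 4T1 change was 0.03 at Elk4 and 0.01 at Psat1.

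Fgfbp1, a secreted carrier of fibroblast growth factors (chr5:43980577-43983327), had its lowest values in CT26 distal AT2 cells and was spanned over 2500 bp by 4T1 niche peaks alone. It had 1801, 1741 and 1993 bp in CT26 niche, against 662, 852 and 1066 bp in CT26 distal libraries, and the groups were well separated. The log2 change was 0.80 ± 0.14 (SE, limma adjusted p = 0.0158). In 4T1 it had 1551, 2179 and 1361 bp in niche, against 1407, 1448 and 1617 bp in distal libraries, which overlapped. The domain in Nckap5 (chr1:126602166-126605095) had 2757, 1803 and 1971 bp in CT26 niche, against 921, 713 and 744 bp in CT26 distal libraries (1.04 ± 0.18, limma adjusted p = 0.0182), and the p was 0.0579 without CT26 niche replicate 1.

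Pim1, a serine/threonine kinase induced by cytokines, ran the other way. Its domain (chr17:29488769-29493187, 4419 bp) had 1867, 1739 and 1725 bp in CT26 niche, against 3842, 4026 and 3648 bp in CT26 distal libraries, the largest values of any group. The log2 change was −0.93 ± 0.15 (SE). Unscaled, it had 1978, 1576 and 1569 bp in CT26 niche, against 3077, 2992 and 2978 bp in CT26 distal libraries, although the distal lists were shorter in all. In 4T1 it had 1441, 2337 and 1975 bp in niche, against 2374, 1730 and 2600 bp in distal libraries, and the groups overlapped. Each CT26 distal library had 1 peak there, and each other library had 2, of 1569 to 2870 bp in all, unscaled. Without CT26 distal peaks the Pim1 domain was not shown to reach the width limit, so its CT26 change is a description. The CT26 call held without any 1 of the libraries, which is not separate evidence of a difference.

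**Figure D4:**
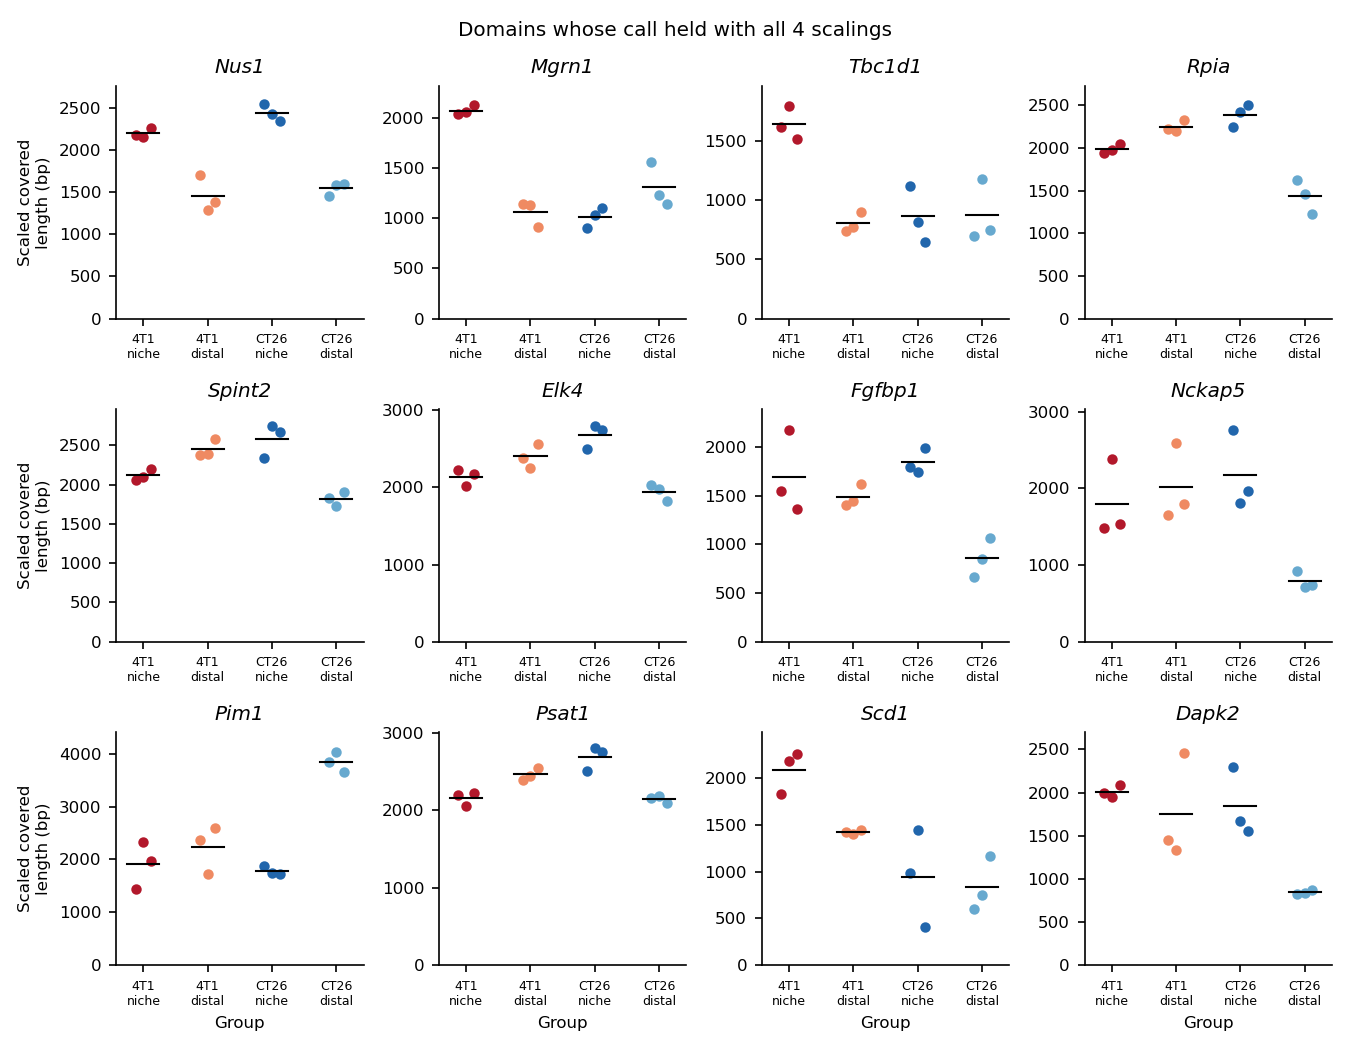
Covered length in bp, scaled to the mean total covered length, for 12 domains whose call held with 4 scalings. Points are libraries, bars are means of 3, and the x axis gives the groups. Nus1 was higher in both niche groups, Mgrn1 and Tbc1d1 in 4T1 niche AT2 cells, and Pim1 in CT26 distal AT2 cells.

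Other domains were called in CT26 with total length scaling but lost with an equal number of peaks. At Ptch1, the Hedgehog receptor (chr13:63563271-63566629), scaled lengths were 3029, 2300 and 2458 bp in CT26 niche, against 848, 774 and 798 bp in CT26 distal libraries. The log2 change of 1.24 ± 0.17 (SE) became −0.48 with equal numbers of peaks. Scaled lengths in 4T1 libraries were 935 to 1813 bp. Without CT26 niche peaks the Ptch1 domain was not shown to reach the width limit, so its change is a description. The domain in Ank3, the ankyrin-G gene (chr10:69923858-69926759), had 2161, 2320 and 2527 bp in CT26 niche, against 938, 697 and 223 bp in CT26 distal libraries, and its change of 1.40 ± 0.22 (limma adjusted p = 0.0103) became 0.27.

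Over both models, 9 domains were higher and 0 lower in niche AT2 cells with all 4 scalings. They were at the starts of Nus1, Mgrn1, Rpia and Fgfbp1, in the bodies of Trim9, Zmiz1, Dapk2 and Gnat1, and 67862 bp from Mbip. Of these 9, 1 was spanned over 2500 bp by every group, and 4 by 1 group. That group was 4T1 niche at Mgrn1, Fgfbp1 and Gnat1, and CT26 distal at Rpia. Zmiz1 was spanned by the niche groups alone. Where niche peaks gave the width, the niche excess is in part built in by the rule. The balance of 9 against 0 is therefore only a description. With total length scaling alone, 19 were higher and 59 lower (5.74%), against 4.69% higher and 5.34% lower among all regions tested, and 9.79% called either way among those held by all 12 libraries. Without scaling, 87 were higher and 1 lower, so the direction of the balance changed with the scaling. The median change was −0.04 in the domains and −0.03 over all regions tested. The niche libraries did not overlap the distal libraries in either model in 8 of the 19 and 53 of the 59, against 0.721% higher and 7.38% lower without overlap over all regions tested. Only Nus1 and Cd36 of the 78 called domains were called without any 1 of the libraries. The width of both rested on niche peaks, so this stability is not separate evidence of a niche excess. Among the 574 domains that every group spans, 2 were higher and 28 lower.

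Cd36, a scavenger receptor for fatty acids, had a domain in its body (chr5:17847796-17850808). Scaled lengths were 1795, 1911 and 1363 bp in 4T1 niche, against 1228, 1127 and 1330 bp in 4T1 distal libraries. They were 2642, 2355 and 2364 bp in CT26 niche, against 1416, 1615 and 1474 bp in CT26 distal libraries. Niche lay above distal in each model (0.45 ± 0.07). The domain passed the width limit through niche peaks, which spanned 3013 bp in 4T1 and 2970 bp in CT26, against 2310 bp and 2357 bp for distal peaks, so this is a description. Trim9, a neuronal ubiquitin ligase, with a domain in its body (chr12:70245400-70248339), had 2308, 2135 and 2165 bp in 4T1 niche, against 1778, 1407 and 1601 bp in 4T1 distal libraries. It had 2558, 1947 and 2948 bp in CT26 niche, against 1931, 1655 and 1488 bp in CT26 distal libraries (0.40 ± 0.09 over both models). Each distal library had 2 peaks there, of 1215 to 1895 bp in all, unscaled. Without the niche peaks this domain was not shown to reach the width limit, so its niche excess is also a description.

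Between the models, CT26 minus 4T1 over both sites, 6 domains were lower in CT26 lungs with all 4 scalings and 0 were higher. They were at the start of Mgrn1, at 1 end each of Scd1 and Ccdc88c, in the bodies of Dapk2 and Mrtfb, and 2373 bp from Ier5. Of these 6, 1 was spanned over 2500 bp by every group. Mgrn1, Scd1, Ccdc88c and Dapk2 were spanned over 2500 bp by 4T1 groups alone. Their lower lengths in CT26 are in part built in by the width rule, so the balance of 6 against 0 is a description. With total length scaling alone 207 were higher and 47 lower (18.7%), against 16.1% higher and 8.5% lower among all regions tested, and 30.3% called either way among those held by all 12 libraries. Without scaling, 0 were higher and 210 lower by limma, so direction cannot be read from this count. The median log2 change was 0.08 in the domains and 0.01 over all regions tested with scaling, and −0.22 and −0.17 without it. At Gapdh (chr6:125164275-125167093), called at 0.26 ± 0.05 with scaling (limma adjusted p = 0.00494), the unscaled covered lengths were 2648, 2390 and 2592 bp in CT26 niche and 2494, 2452 and 2568 bp in CT26 distal, against 2651, 2618 and 2568 bp in 4T1 niche and 2687, 2709 and 2595 bp in 4T1 distal libraries. These lie within a narrow band, with an unscaled change of −0.05. Nkx2-1, Grhl2, Klf9 and Klf10 were also called higher in CT26 with scaling, and their unscaled changes were 0.00, −0.07, −0.10 and −0.00.

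Scd1, an enzyme of fatty acid desaturation used in surfactant lipid synthesis, had a domain at 1 end (chr19:44393841-44396592). It was spanned over 2732 bp by 4T1 niche peaks, and over 1561, 1450 and 1052 bp by those of 4T1 distal, CT26 niche and CT26 distal libraries, so it passed the width limit through 1 group of 4T1, and its difference between the models is a description. Its scaled length was 983, 1450 and 402 bp in CT26 niche and 602, 747 and 1169 bp in CT26 distal, against 1833, 2183 and 2259 bp in 4T1 niche and 1422, 1405 and 1443 bp in 4T1 distal libraries. CT26 libraries were lower on average, and 1 of the 6 overlapped the 4T1 range. The log2 change was −0.73 ± 0.17 (SE). At Lamp3 the scaled means were 1567 ± 105 bp in CT26 niche and 1894 ± 91.7 bp in CT26 distal, against 1807 ± 324 bp in 4T1 niche and 1467 ± 44.2 bp in 4T1 distal libraries (SD, n = 3), and no comparison was called. The domain at the 3′ end of Slc34a2, the phosphate cotransporter of AT2 cells (chr5:53069241-53073117), had 1036, 1374 and 1349 bp in CT26 niche and 1674, 872 and 1089 bp in CT26 distal, against 2536, 2665 and 2535 bp in 4T1 niche and 3322, 2917 and 2823 bp in 4T1 distal libraries. CT26 and 4T1 libraries did not overlap (−0.94 ± 0.10). From first to last covered base, CT26 peaks spanned 3619 bp in niche and 3726 bp in distal libraries, but each library covered far less. Without 4T1 peaks the Slc34a2 domain was not shown to reach the width limit, so this difference is a description. With equal numbers of peaks the change was −0.59 and not called, with a limma adjusted p of 0.627.

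The domain over Neat1 was also narrower in CT26 lungs with total length scaling. Its scaled length was 1507, 1305 and 1650 bp in CT26 niche and 612, 849 and 981 bp in CT26 distal libraries. It was 3469, 1710 and 3307 bp in 4T1 niche and 2775, 3244 and 4731 bp in 4T1 distal libraries (−1.16 ± 0.16). CT26 peaks spanned 4802 bp in niche and 4747 bp in distal libraries with gaps counted, but each library covered far less. Without 4T1 peaks the domain was not shown to reach the width limit, so this is a description. The 4T1 libraries were all above the CT26 libraries, and with equal numbers of peaks the change was 0.22 and not called. Lower on this scale in CT26 lungs were also the domains at Tcof1 and Cd74 (−0.87 ± 0.22) and in Dnajb13 (−1.15 ± 0.23).

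Among the gene lists, few domains at starts or single ends were called with total length scaling, and the counts stand beside 16.1% of all regions higher in CT26 and 5.34% lower in niche over both models. Of 9 at AT2 transcription factors, 0 differed between niche and distal AT2 cells in either model or over both, and 2 (Nkx2-1 and Grhl2) were higher in CT26. Of 10 at immediate early genes, 1 (Klf9) was lower in niche over both models and 2 (Klf9 and Klf10) were higher in CT26. None of the 5 at stem and progenitor genes was called in any comparison. The body domain at Fos, an AP-1 subunit (chr12:85476466-85479527), was lower in niche over both models by −0.32 ± 0.07 (limma adjusted p = 0.0244). Its scaled lengths were 2212, 1752 and 1880 bp in 4T1 niche against 2765, 2701 and 2473 bp in 4T1 distal libraries, and 1785, 1796 and 1922 bp in CT26 niche against 2494, 1939 and 2542 bp in CT26 distal libraries. With peaks of a −log10 q of at least 5, the change had the opposite sign, 0.19.

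The covered length of the domains also varied between replicates. The SD of log2 scaled length within groups had a median of 0.22 in the domains, against 0.12 in shorter regions that all 12 libraries held.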

How the data were processed

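Open chromatin was measured by Omni-ATAC-seq in 12 libraries (4 groups of 3). The authors deposited one list of broad peaks per library in GRCm38 coordinates, and MACS2 and bedtools are named without versions per the submitters' processing notes. For the aligner, filters and settings the sources used here give nothing. Per the labels, 30000000 reads were planned per sample. Read counts are not part of the lists, which leaves the depth unknown, and no interval or floor from counts was computed. Peak starts and ends (positions in bp) in the deposited lists are the main measure. The deposited fold enrichment, a ratio to background, and the deposited −log10 p and −log10 q values only ranked or filtered peaks within a list. The lowest deposited −log10 q was 1.00.

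Peaks on the 19 autosomes and X (666718, with 43 on other sequences left out) were merged with an overlap of at least 1 bp, and bp covered per region and library were counted (Python 3.11.15, pandas 2.3.3, numpy 2.4.6). Covered lengths were divided by each library's total relative to the mean total, and log2(bp + 500) was fitted in R 4.3.3 with limma 3.58.1 (lmFit, eBayes with a trend, 4 group means, 8 residual degrees of freedom). P-values were adjusted by Benjamini-Hochberg over 64948 regions, in 5 comparisons. The fit was tested on simulated data. P-values measure the spread between 3 pooled samples a group. Fold changes are on the log2(bp + 500) scale, which understates changes of short lengths.

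Genes are from RefSeq GRCm38.p6, in which 17273 of 21627 coding genes had a start of known strand in the promoter table. Where the strand was not given, either gene end counted as a start for naming. A domain is named by the coding gene starting in it, then by the gene it lies in, then by the nearest gene. Named were the 12 widest domains, the 8 largest called changes each way per comparison without overlap of groups, and domains at starts of listed genes. Domains called with all 4 scalings and those with the longest cores were added after their values were seen. The members and lists were chosen with earlier results of these data known. A few genes are not reported here by name. Other scalings, q limits, added lengths, filters, a replicate block and leaving out each library were tried.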

Additional observations from a re-analysis of the deposited data

Results flagged for a closer look

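In 8 domains the niche minus distal change differed between the models by the interaction term of limma (adjusted p under 0.05), and each is given as the difference of log2 changes, CT26 minus 4T1, with the change in CT26 and then in 4T1. The difference was 0.52 at Elk4 (0.38 and −0.14), 1.19 at Ptch1 (1.24 and 0.05), −0.98 at Mgrn1 (−0.25 and 0.72) and 0.42 at Psat1 (0.27 and −0.16). It was 0.80 at LOC115486128 (0.69 and −0.11), 0.72 at Rpia (0.58 and −0.14), −1.28 at Dusp16, a MAP kinase phosphatase (−0.59 and 0.69), and 0.58 at Spint2 (0.41 and −0.17). Mgrn1 passed the width limit through 4T1 niche peaks alone, and Ptch1 was not shown to reach it without CT26 niche peaks. The differences at Mgrn1 and Ptch1 are therefore descriptions.

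Scaled lengths at Dusp16 (chr6:134790902-134794479) were 2338, 1434 and 1327 bp in CT26 niche, against 2629, 2688 and 2908 bp in CT26 distal libraries. They were 2862, 2201 and 2213 bp in 4T1 niche, against 1351, 1531 and 1060 bp in 4T1 distal libraries. The 8 domains are 0.589% of 1358, and without scaling the 4T1 changes at Elk4, Psat1 and Rpia were 0.03, 0.01 and 0.02. By limma, 0 of the 8 were called when any 1 of the 4T1 niche libraries was left out.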

How the results depend on the processing

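Counts of called domains are given as higher and lower, for niche minus distal in 4T1, in CT26 and over both models, then CT26 minus 4T1, then the difference of changes, where the setting moved them by over 1.5 times. The main counts were 6 and 5, 19 and 3, 19 and 59, 207 and 47, and 6 and 2. Without scaling they were 15 and 1, 52 and 1, 87 and 1, 0 and 210, and 12 and 1. Scaled to regions held by all 12 libraries, 4T1 gave 12 and 1, both models 35 and 5, and CT26 minus 4T1 33 and 80. With equal numbers of peaks, 4T1 gave 3 higher, CT26 5 lower, both models 12 lower, CT26 minus 4T1 18 and 15, and the difference 4 lower. With −log10 q of at least 5, 4T1 gave 2 lower, both models 5 lower, CT26 minus 4T1 140 lower, and the difference 12 and 7. Only regions held by all 12 libraries gave 0 and 0 in 4T1, 12 higher in CT26, 89 lower over both, and 1 and 1 for the difference. Adding 100 bp gave 5 lower in CT26 and 10 higher for the difference. No filter on libraries gave 20 lower over both models. Called with all 4 scalings (added after seeing the data) were 3 and 0, 11 and 1, 9 and 0, 0 and 6, and 4 and 1. Among the 574 domains every group spans (also added later), the counts were 0 and 1, 5 higher, 2 and 28, 102 and 11, and 2 and 1. The causes were not tested.

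Same-numbered libraries of different groups correlated at −0.085 to 0.104 in deviations from group means, and only 1 of 18 such pairs passed 0.1. That pair was 4T1 distal and 4T1 niche replicate 2. Libraries of different number correlated at −0.143 to 0.102. Most same-numbered pairs joined the 2 tumour models, so these values cannot decide whether niche and distal samples were paired. A replicate block gave 1 lower in 4T1, 22 lower over both models and 2 higher for the difference.

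Leaving out 1 library at a time gave ranges of 0 to 10 higher and 0 to 5 lower in 4T1, 12 to 21 and 3 to 8 in CT26, 2 to 29 and 0 to 61 over both models, 168 to 241 and 29 to 58 for CT26 minus 4T1, and 0 to 12 and 0 to 3 for the difference. The number of domains ranged from 1230 to 1375. The share of covered length ranged from 6.21 to 6.40% in 4T1 niche, 6.60 to 6.67% in 4T1 distal, 6.85 to 6.87% in CT26 niche and 6.65 to 7.08% in CT26 distal AT2 cells.

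The number of domains was 3670 at 2000 bp, 526 at 3000 bp and 65 at 4000 bp. It was 63 with a single peak of 2500 bp in every library, 568 with 50% of the width covered in each, and 806 with peaks of −log10 q of at least 5 merged anew. With that q limit the shares were 7.34%, 7.33% and 7.48% in 4T1 niche, 4T1 distal and CT26 niche AT2 cells, and with equal numbers of peaks 7.34%, 7.24% and 7.30%.

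Of 92 values of 76 named domains, 20 of their values under an alternative had the opposite sign. Without scaling these were, for CT26 minus 4T1, Tmem220 (−0.0874), Tlcd2 (the Mir22hg domain, −0.0137), Grhl2 (−0.0695), Klf10 (−0.00328), Klf9 (−0.10) and Gapdh (−0.0538). With equal numbers of peaks they were Ank3 (0.67), Ywhaz (0.83), Frmd8 (the Neat1 domain, 0.22) and Dnajb13 (0.51) for CT26 minus 4T1, Mdm2 in 4T1 (0.43), Ptch1 (−0.48) and Cwc27 (−0.0449) in CT26, and Ptch1 over both models (−0.66). With −log10 q of at least 5 they were Nkx2-1 (−0.51), Nfe2l2 (−0.27) and Cd36 (−0.0161) for CT26 minus 4T1, and Fos (0.19), Usp39 (0.63) and Rnf141 (−0.41) for niche minus distal over both models.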

Other observations

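MicroRNA genes lay in 11 of the wide domains (0.810%), against 0.286% of the shorter regions, which have less room for them. They included Mir330 at Eml2, Mir7671 at Irf1, an interferon response factor, and Mir5100 at Mief2. The domain at Mir22hg, the host gene of miR-22 (chr11:75460479-75463320), had a core of 2658 bp, and its scaled means were 2285 ± 64.9 bp in 4T1 niche, 2582 ± 87.5 bp in 4T1 distal, 2854 ± 243 bp in CT26 niche and 3407 ± 187 bp in CT26 distal libraries (SD, n = 3). The domain is 2842 bp wide, so the scaled means in CT26 exceed its width. Without scaling, the CT26 minus 4T1 change was −0.0137, so no group difference can be read from the scaled means.

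The body of Mdm2, the ubiquitin ligase that limits p53 (chr10:117686075-117689024), had scaled lengths of 651, 283 and 397 bp in 4T1 niche, against 2769, 1691 and 1835 bp in 4T1 distal libraries (−1.46 ± 0.27). With equal numbers of peaks this change was 0.43, and only 4T1 distal peaks spanned 2500 bp there. In CT26 it had 592, 399 and 449 bp in niche, against 1853, 517 and 987 bp in distal libraries. At Spry2, scaled lengths were 4236, 3433 and 3054 bp in 4T1 niche, against 1411, 1497 and 2434 bp in 4T1 distal libraries, and no comparison was called there. The domains were spread over all chromosomes analysed, from 3.21% of the regions held by all 12 libraries on chromosome 13 to 4.78% on chromosome 10, with a median gap of 702 kb between neighbours.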
